A study of Mus musculus with 15 samples.

Results

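The genes described here break down haem or handle iron: Hmox1, Blvra, Blvrb, Fth1, Ftl1, Tfrc, Trf, Hp, Cp and Cd163. These 10 genes were taken by name from a table of 22526 gene symbols, which holds bulk RNA sequencing of cerebral vessels from mouse brain. Levels are in FPKM, that is, fragments per kilobase of RNA relative to all fragments mapped in the library, so levels of different genes compare per length. All 10 genes passed a minimum mean of 1 FPKM over the 15 libraries, as did 13082 genes in all.

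The libraries formed 3 groups of 5. LH3-AL mice had a stereotactic injection of an adeno-associated virus (AAV) with LH3, a collagen-modifying enzyme that the gene Plod3 encodes, and were given angiotensin II (AngII) plus L-NAME, which blocks the making of nitric oxide. GFP-AL mice had AAV-GFP, which carries green fluorescent protein, and the same pair of drugs. GFP-Veh mice had AAV-GFP and saline. All were wild type C57BL/6 animals of 8 months whose vessels were emptied by perfusion before the brain was taken, and every group carried a virus. The series concerns spontaneous intracerebral haemorrhage in hypertension. The labels do not say which animals bled, which promoter drives the viruses, or whether a library stands for a single animal, so p-values rest on the spread between these libraries, which may be technical. No group had the LH3 virus with saline or either drug alone, so the parts played by AngII and by L-NAME cannot be told apart.

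Haem that leaves dead red cells is opened by haem oxygenase, which yields biliverdin, carbon monoxide and iron. Biliverdin reductases then make bilirubin. Free iron is held inside ferritin, a shell of heavy and light chains; iron bound to transferrin enters cells through the transferrin receptor, and it leaves through ferroportin with the help of copper-containing oxidases such as ceruloplasmin. Haptoglobin catches free haemoglobin in plasma and CD163 on macrophages takes up the pair. In brain, haem oxygenase 1, ferritin and CD163 are known as markers of tissue that has met blood.

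Estimated depth was 18.0 to 31.6 M fragments (M, mega) for LH3-AL, 21.1 to 27.8 M for GFP-AL and 13.5 to 29.7 M for GFP-Veh. GFP-AL replicates 2 and 3 correlated least with the rest of their group (mean r across genes of 0.939 and 0.944, against 0.956 for each of the other GFP-AL libraries), and GFP-AL replicate 3 reached 1 FPKM in the smallest number of genes (11967). GFP-Veh replicate 2 had a mean r of 0.953 with its group, against 0.970 to 0.974 in the others, and the most Ttr, a choroid plexus gene (9070 FPKM, against 3590 to 4840 FPKM). Where leaving out these 3 libraries ended a call on a gene named below, the value without them is given. Plod3, the transferred gene, averaged 21.6 ± 1.46 FPKM in LH3-AL (SD, n = 5 in each group). It averaged 13.9 ± 1.09 FPKM in GFP-AL and 16.8 ± 0.621 FPKM in GFP-Veh, with no overlap between any pair of groups. Lack of overlap held for 16.7% of all genes between GFP-AL and GFP-Veh, 19.4% between LH3-AL and GFP-AL and 4.67% between LH3-AL and GFP-Veh. For Plod3, LH3-AL was 0.599 ± 0.076 above GFP-AL in log2 (SE, limma adjusted p = 1.07e-04). GFP-AL minus GFP-Veh was -0.254 ± 0.076 (adjusted p = 0.0216), so GFP-AL was itself the lower. LH3-AL minus GFP-Veh was 0.345 ± 0.076 and missed the threshold of 0.05 (adjusted p = 0.0628). Endothelial Cldn5 averaged 907, 1270 and 982 FPKM in LH3-AL, GFP-AL and GFP-Veh. Mural Acta2 averaged 314, 285 and 359 FPKM, so vessel cell genes were present in all groups, but not at equal levels. Summed FPKM of 8 endothelial markers was 2260 to 3720 in LH3-AL, 3590 to 5530 in GFP-AL and 2520 to 3520 in GFP-Veh. At a limma adjusted p below 0.05, 4 of these were higher in GFP-AL than in GFP-Veh and 3 lower in LH3-AL than in GFP-AL. Of 8 mural markers, 3 were lower in GFP-AL than in GFP-Veh and 1 was higher in LH3-AL than in GFP-AL. Among all genes, 10.8% were higher and 17.7% lower in the first comparison, and 17% were higher and 11.4% lower in the second. In both lists 0 markers were called the other way, but the means did not all move alike. In GFP-AL against GFP-Veh, endothelial Slco1a4 averaged 202 against 238 FPKM, Flt1 192 against 199 FPKM and Abcb1a 141 against 153 FPKM. Mural Pdgfrb averaged 65.9 against 57.0 FPKM and Kcnj8 33.7 against 29.3 FPKM. In bulk tissue, fewer cells of a type and less RNA per cell cannot be told apart.

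Against GFP-Veh, GFP-AL vessels had more RNA for haem oxygenase 1, haptoglobin, its receptor Cd163, both ferritin chains and ceruloplasmin. Of the 10 genes, 6 were called higher and 0 lower at a limma adjusted p below 0.05. Among all genes tested, 10.8% were called higher, 17.7% lower and 28.6% in either direction. Hmox1, Hp and Cd163 did not overlap between the groups, which held for 16.7% of all genes. The median log2 difference was 0.63 over the 10 genes and -0.09 over all genes tested, on the log2(FPKM + 1) scale used for every difference here, a scale that understates changes of low genes. Blvra, Blvrb, Tfrc and Trf were not called. The ferritin calls were less secure than the others: Fth1 kept its call in 7 of 19 alternative fits and Ftl1 in 13 of 19.

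LH3-AL vessels had less RNA than GFP-AL vessels for haem oxygenase 1, haptoglobin, the ferritin heavy chain and Cd163. Of the 10 genes, 4 (Hmox1, Hp, Fth1 and Cd163) were called lower in LH3-AL and 0 higher, where 11.4% of all genes were called lower, 17% higher and 28.5% in either direction. Hmox1 and Hp did not overlap between these groups, as was the case for 19.4% of all genes. The Cd163 call was close to the threshold (adjusted p = 0.0486) and was kept in 6 of 18 alternative fits. The median difference was -0.42 over the 10 genes and 0.08 over all genes. This comparison and the one before share the GFP-AL libraries, so opposite signs in them are not independent.

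Against GFP-Veh, none of the 10 genes was called in LH3-AL in the limma fit, although Trf, Cp and Cd163 had an unadjusted p below 0.05. In this comparison 0.52% of all genes were called, 0.145% higher and 0.375% lower, and 1180 genes had an unadjusted p below 0.05. Tfrc alone did not overlap between the groups, which held for 4.67% of all genes. The median difference was 0.31 over the 10 genes and -0.01 over all genes.

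**Figure D1:**
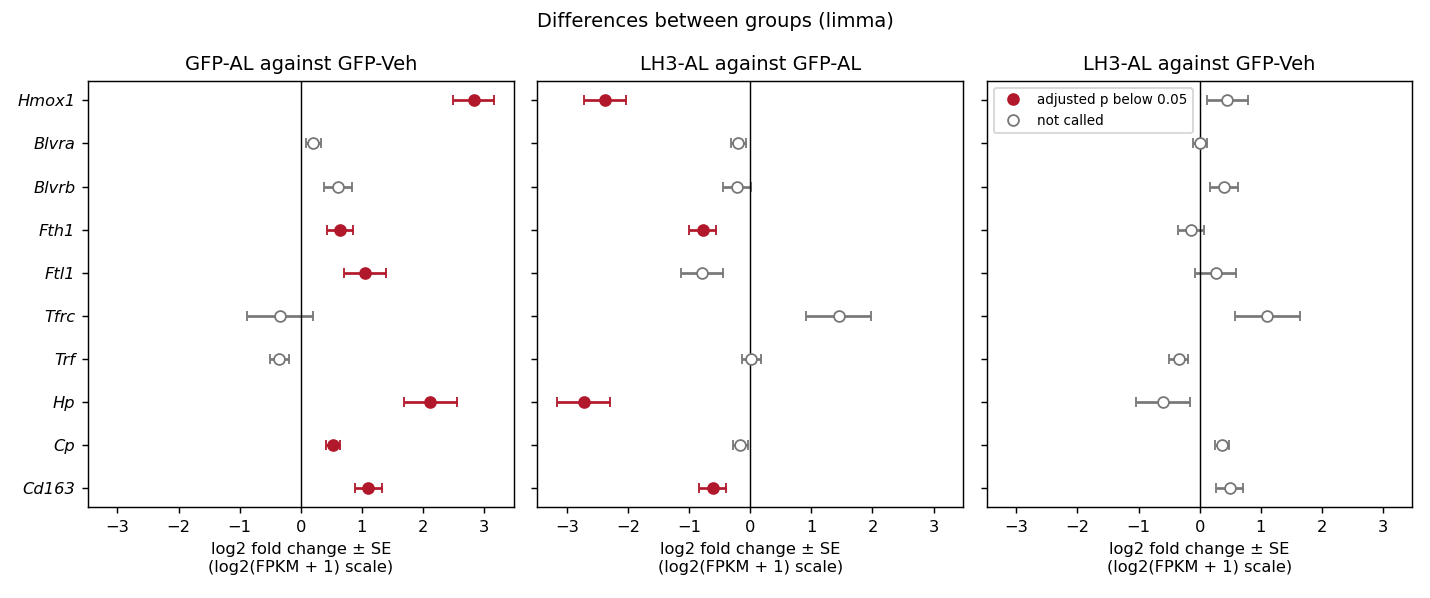
Log2 differences (points) with their standard errors (bars) for the 10 genes in the 3 comparisons, with filled points for adjusted p below 0.05. Hmox1 and Hp lie farthest from 0 in GFP-AL against GFP-Veh (2.83 and 2.12) and again, with the opposite sign, in LH3-AL against GFP-AL (-2.37 and -2.73), while no point is filled in LH3-AL against GFP-Veh.

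Hmox1 (ENSMUSG00000005413, chromosome 8, 75093621 to 75100589, plus strand, GRCm38) encodes the inducible haem oxygenase. Its level was 5.32, 4.69, 6.31, 5.88 and 15.3 FPKM in the LH3-AL libraries, 19.5, 95.4, 32.8, 43.2 and 36.4 FPKM in the GFP-AL libraries and 4.47, 6.39, 4.56, 3.92 and 4.56 FPKM in the GFP-Veh libraries. Every GFP-AL library lay above every library of both other groups, and LH3-AL replicate 5 lay above the rest of its own group. The mean in GFP-AL was 9.51 times that in GFP-Veh, and the log2 difference was 2.83 ± 0.34 (SE, adjusted p = 4.37e-05). LH3-AL fell by 2.37 ± 0.34 relative to GFP-AL (adjusted p = 2.75e-04). LH3-AL and GFP-Veh overlapped and differed by 0.45 ± 0.34 (adjusted p = 0.756), with 2 SE on either side running from -0.23 to 1.13. Both calls held in all 19 alternatives tried. Hmox2, the constitutive haem oxygenase, averaged 8.51 ± 1.65 FPKM in LH3-AL, 12.5 ± 3.03 FPKM in GFP-AL and 10.3 ± 3.11 FPKM in GFP-Veh (SD, n = 5 each). It was called in no comparison, with a difference of 0.27 ± 0.19 for GFP-AL against GFP-Veh (adjusted p = 0.282) and -0.50 ± 0.19 in LH3-AL against GFP-AL (adjusted p = 0.0557). The second difference was called with median-of-ratios scaling (-0.57, adjusted p = 0.0328) and with quantile normalization (-0.49, adjusted p = 0.0466).

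Neither biliverdin reductase was called in any comparison with all libraries and no rescaling. Blvra (ENSMUSG00000001999, chromosome 2, 127070665 to 127097084, plus strand) encodes the reductase of the main adult bile pigment. It ranged from 4.43 to 5.13 FPKM in LH3-AL, from 4.85 to 6.25 FPKM in GFP-AL and from 3.55 to 6.94 FPKM in GFP-Veh, with GFP-Veh replicate 2 the highest of all. The groups overlapped, and GFP-AL differed from GFP-Veh by 0.20 ± 0.12 (adjusted p = 0.223). Without GFP-Veh replicate 2 that difference was 0.32 and passed (adjusted p = 0.0158). Blvrb (ENSMUSG00000040466, chromosome 7, 27447978 to 27466144, plus strand) encodes a flavin reductase that also reduces biliverdin and is abundant in red cells. It ranged from 8.44 to 17.5 FPKM in LH3-AL, from 7.20 to 18.0 FPKM in GFP-AL and from 6.12 to 11.6 FPKM in GFP-Veh. The GFP-AL minus GFP-Veh difference was 0.61 ± 0.23 (adjusted p = 0.0609). That value was 0.94 when the 3 libraries that stood apart were left out (adjusted p = 0.0111), 0.77 without GFP-AL replicate 2 (adjusted p = 0.0186) and 0.76 without GFP-Veh replicate 2 (adjusted p = 0.0207), and it was 0.70 with median-of-ratios scaling (adjusted p = 0.0413). LH3-AL replicate 5, the LH3-AL library with the most Hmox1, also had the most Blvrb of its group and the highest summed red cell markers of its group (10100 FPKM, against 4770 to 7990 FPKM). The part of red cell RNA in the Blvrb values was not tested.

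**Figure D2:**
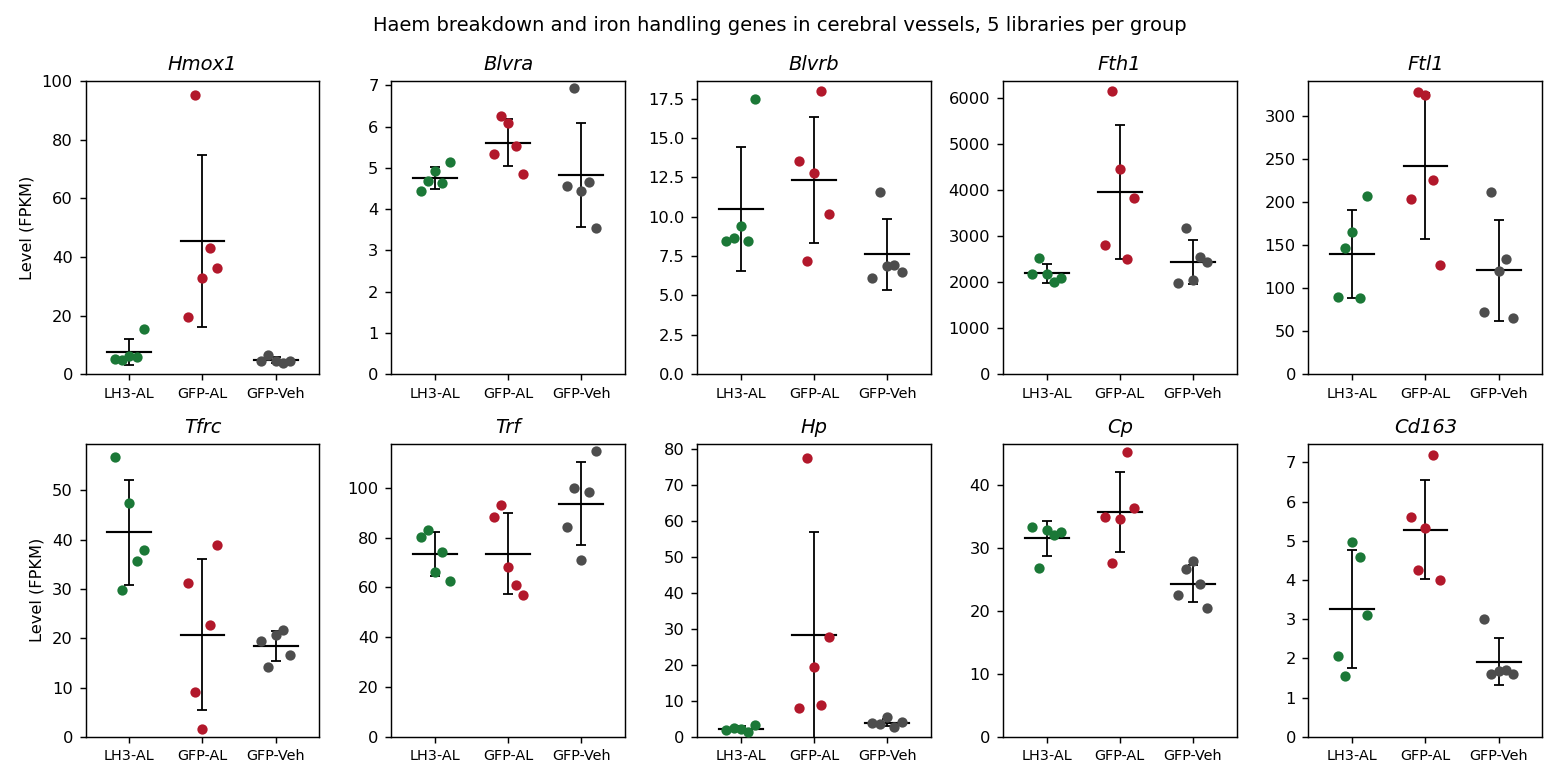
Level in FPKM (vertical axis, from 0) of each gene in every library, with the group mean (line) and SD (bar), for LH3-AL, GFP-AL and GFP-Veh from left to right. Hmox1, Hp and Cd163 in GFP-AL lie wholly above GFP-Veh, and Tfrc spans 1.66 to 38.9 FPKM within GFP-AL.

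Ferritin, the transferrin receptor and ferroportin share a control outside the promoter. Their messenger RNAs carry iron-responsive elements, stem-loops that iron regulatory proteins bind when iron is scarce. Binding near the 5′ end blocks translation, and binding in the 3′ UTR protects the Tfrc RNA from decay. Elements were searched in the annotated UTRs as C, then 5 bases, then CAGTGN, then 5 bases that pair with the first 5, with G-U pairs allowed. They were found in 3 of the 10 genes and in Slc40a1, the gene of ferroportin, and are shown because the RNA levels of these genes are given below. Whether the elements acted in these libraries was not tested. Such a match occurred in the 5′ UTR of 31 of 20899 genes (0.148%) and in the 3′ UTR of 129 of 21028 genes (0.613%). The sequences are from GENCODE M21 (GRCm38), 5′ to 3′ on the gene's strand, with the loop in capitals.
Fth1, 5′ UTR, chr19:9982733-9982759, plus strand: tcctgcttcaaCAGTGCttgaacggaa
Ftl1, 5′ UTR, chr7:45459780-45459806, minus strand: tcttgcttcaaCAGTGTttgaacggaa
Slc40a1, 5′ UTR, chr1:45925466-45925492, minus strand: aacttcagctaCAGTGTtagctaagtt
Tfrc, 3′ UTR, chr16:32631220-32631246, plus strand: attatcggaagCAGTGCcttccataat
Tfrc, 3′ UTR, chr16:32631599-32631625, plus strand: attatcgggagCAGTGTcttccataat
Tfrc, 3′ UTR, chr16:32631664-32631690, plus strand: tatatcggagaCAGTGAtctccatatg
Tfrc, 3′ UTR, chr16:32631711-32631737, plus strand: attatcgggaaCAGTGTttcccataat

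Fth1 (ENSMUSG00000024661, chromosome 19, 9980598 to 9985098, plus strand) encodes the ferritin heavy chain, which oxidises iron for storage, and was the most abundant of the 10 genes per length in every library. It stood at 2169, 2526, 2178, 2003 and 2082 FPKM in LH3-AL, at 2817, 6167, 4467, 2508 and 3833 FPKM in GFP-AL and at 1991, 3169, 2055, 2553 and 2444 FPKM in GFP-Veh. GFP-AL replicates 2, 3 and 5 lay above every GFP-Veh library, and GFP-AL overlapped both other groups. GFP-AL was 0.64 ± 0.22 above GFP-Veh (adjusted p = 0.0368), 1.62 times in mean FPKM. LH3-AL fell by 0.78 ± 0.22 relative to GFP-AL (adjusted p = 0.0156). The first of these calls held in only 7 of 19 alternatives (adjusted p between 0.012 and 0.136). Without GFP-AL replicate 2 the difference was 0.46 (adjusted p = 0.0734), and without the 3 libraries that stood apart it was 0.42 (adjusted p = 0.0601). It was also lost without GFP-AL replicate 3 or 5 and without GFP-Veh replicate 1, 3, 4 or 5. The call in LH3-AL against GFP-AL held in 18 of 19, the exception being the fit with no filter on low genes (adjusted p = 0.0699).

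Ftl1 (ENSMUSG00000050708, chromosome 7, 45457944 to 45459884, minus strand) encodes the ferritin light chain, which helps form the iron core. Its level was 89.3, 147, 166, 88.8 and 207 FPKM in LH3-AL, 204, 327, 325, 225 and 127 FPKM in GFP-AL and 72.1, 211, 120.2, 134 and 65.6 FPKM in GFP-Veh. The groups overlapped: GFP-AL replicate 5 lay among the GFP-Veh values, and GFP-Veh replicate 2 lay above 2 GFP-AL libraries. GFP-AL was 1.05 ± 0.34 above GFP-Veh (adjusted p = 0.0314), a call that held in 13 of 19 alternatives. It was lost without GFP-AL replicate 2 (0.92, adjusted p = 0.0712) or replicate 3 (0.92, adjusted p = 0.079), without GFP-Veh replicate 1 (0.90, adjusted p = 0.081) or replicate 5 (0.86, adjusted p = 0.0866), and when the 3 libraries that stood apart were left out (0.94, adjusted p = 0.0623). Depth as a covariate ended it too (1.25, adjusted p = 0.0612). LH3-AL differed from GFP-AL by -0.79 ± 0.34 and was not called (adjusted p = 0.0936), except without GFP-AL replicate 5 (-0.997, adjusted p = 0.039). Heavy chain exceeded light chain by 10.0 to 24.3 times in LH3-AL, by 11.1 to 30.1 times in GFP-AL and by 15.0 to 37.2 times in GFP-Veh, so the ratio overlapped between all groups. Exons of Ftl1 overlap those of 2 other annotated genes, and 2 ferritin pseudogenes are listed at up to 0.714 FPKM. The sources do not state how reads shared with such copies were counted, so ferritin values carry that uncertainty.

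Tfrc (ENSMUSG00000022797, chromosome 16, 32608920 to 32632794, plus strand) encodes the transferrin receptor, abundant in brain capillaries and in young red cells. It read 56.7, 29.8, 47.4, 35.6 and 37.9 FPKM in LH3-AL, 31.2, 9.12, 1.66, 22.7 and 38.9 FPKM in GFP-AL and 19.4, 14.2, 20.6, 21.6 and 16.6 FPKM in GFP-Veh. GFP-AL was split: replicates 1, 4 and 5 lay above every GFP-Veh library, and replicates 2 and 3, the GFP-AL libraries that stood apart, lay below every one. Between GFP-AL and GFP-Veh the difference was -0.34 ± 0.54 (adjusted p = 0.664) with all libraries and 0.61 (adjusted p = 0.0521) without the 3 libraries that stood apart, so its sign turned. LH3-AL was 1.45 ± 0.54 above GFP-AL and missed the threshold (adjusted p = 0.0543), and the difference without those libraries was 0.41. It passed without GFP-AL replicate 1, 4 or 5 (1.72, 1.61 and 1.79, adjusted p = 0.03, 0.0492 and 0.0208) and after quantile normalization (1.45, adjusted p = 0.0445). All LH3-AL libraries lay above all GFP-Veh libraries, with a mean of 41.5 ± 10.6 FPKM against 18.5 ± 3.07 FPKM (SD, n = 5 each). That difference of 1.11 ± 0.54 was not called in the fit over 3 groups (adjusted p = 0.574). It passed in a fit of these groups alone (adjusted p = 0.0122) and when the 3 libraries that stood apart were left out (1.02, adjusted p = 0.0214).

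RNA of the ferritin heavy chain and of the transferrin receptor can be set against each other within a library. The ratio of Fth1 to Tfrc was 38.3, 84.6, 46.0, 56.2 and 54.9 in LH3-AL, 90.4, 676, 2690, 110 and 98.6 in GFP-AL and 103, 224, 99.7, 118 and 148 in GFP-Veh. All LH3-AL ratios lay below all ratios of the other groups. GFP-AL replicates 2 and 3 lay above every GFP-Veh ratio, and the other GFP-AL libraries lay within or below the GFP-Veh range. These ratios are descriptive and were not tested.

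Slc40a1, the gene of ferroportin and the only known exporter of iron from cells, was measured in the same libraries. Its level was 23.97, 17.2, 14.2, 16.3 and 16.6 FPKM in LH3-AL, 12.5, 5.89, 5.55, 10.4 and 12.99 FPKM in GFP-AL and 13.9, 18.2, 19.9, 19.3 and 16.5 FPKM in GFP-Veh. GFP-AL lay below both other groups without overlap, and GFP-AL replicates 2 and 3 were the lowest of all. GFP-AL fell by 0.89 ± 0.21 relative to GFP-Veh (adjusted p = 0.00549), and LH3-AL was 0.89 ± 0.21 above GFP-AL (adjusted p = 0.0066). Without the 3 libraries that stood apart these differences were -0.50 (adjusted p = 0.0402) and 0.51 (adjusted p = 0.0358). LH3-AL and GFP-Veh differed by -0.003 ± 0.21 (adjusted p = 0.998).

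Trf (ENSMUSG00000032554, chromosome 9, 103204001 to 103230444, minus strand) encodes transferrin, the iron carrier made in brain by oligodendrocytes and choroid plexus. It ranged from 62.5 to 83.1 FPKM in LH3-AL, from 57.1 to 93.0 FPKM in GFP-AL and from 70.9 to 115 FPKM in GFP-Veh, and all groups overlapped. GFP-AL differed from GFP-Veh by -0.35 ± 0.16 (adjusted p = 0.0991), LH3-AL minus GFP-AL was 0.02 ± 0.16 (adjusted p = 0.950), and LH3-AL minus GFP-Veh was -0.34 ± 0.16 (adjusted p = 0.541). The first of these passed after quantile normalization (-0.52, adjusted p = 0.0259), without GFP-AL replicate 2 (-0.45, adjusted p = 0.0428) and without GFP-Veh replicate 3 (-0.45, adjusted p = 0.0461). Of 10 oligodendrocyte markers, 7 were lower in GFP-AL than in GFP-Veh and 5 were higher in LH3-AL than in GFP-AL. Their sum ran from 491 to 1090 FPKM in LH3-AL, from 342 to 896 FPKM in GFP-AL and from 698 to 1050 FPKM in GFP-Veh. Of 10 choroid plexus markers, 7 were lower in GFP-AL than in GFP-Veh and 7 were higher in LH3-AL than in GFP-AL. Among all genes, 17.7% were lower in the first comparison and 17% were higher in the second. The part of oligodendrocytes and choroid plexus in the Trf values was not tested. Exons of Trf overlap those of another annotated gene on the same strand over 2108 bases, so its reads may be split.

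Cp (ENSMUSG00000003617, chromosome 3, 19957054 to 20009145, plus strand) encodes ceruloplasmin, a copper oxidase that loads exported iron onto transferrin. Its level was 33.4, 26.7, 32.9, 32.0 and 32.5 FPKM in LH3-AL, 34.9, 27.6, 34.6, 45.3 and 36.4 FPKM in GFP-AL and 22.6, 26.6, 27.9, 24.3 and 20.4 FPKM in GFP-Veh. Of the GFP-AL libraries only replicate 2 fell within the GFP-Veh range, and of the LH3-AL libraries likewise only replicate 2. GFP-AL rose by 0.53 ± 0.12 relative to GFP-Veh (adjusted p = 0.00477), and the call held in all 19 alternatives. LH3-AL differed from GFP-AL by -0.16 ± 0.12 (adjusted p = 0.315) and from GFP-Veh by 0.36 ± 0.12 (adjusted p = 0.323, unadjusted p = 0.00854). Cp was thus called in GFP-AL against GFP-Veh and in no other comparison. Its exons overlap those of Hps3 on the opposite strand over 108 bases.

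Hp (ENSMUSG00000031722, chromosome 8, 109575128 to 109579172, minus strand) encodes haptoglobin, made chiefly by liver and also stored in neutrophil granules. It read 1.85, 2.49, 2.25, 1.31 and 3.30 FPKM in LH3-AL, 7.87, 77.4, 19.4, 8.96 and 27.7 FPKM in GFP-AL and 3.75, 3.46, 5.43, 2.76 and 4.09 FPKM in GFP-Veh. Every GFP-AL library lay above both other groups, with a spread of 9.84 times between the lowest and the highest, and 4 of 5 LH3-AL libraries lay below every GFP-Veh library. GFP-AL was 2.12 ± 0.44 above GFP-Veh (adjusted p = 0.00252), and LH3-AL fell by 2.73 ± 0.44 relative to GFP-AL (adjusted p = 5.89e-04). Both calls held in all 19 alternatives, with differences of 1.47 to 2.43 in GFP-AL against GFP-Veh and of -3.14 to -2.10 in LH3-AL against GFP-AL. LH3-AL differed from GFP-Veh by -0.61 ± 0.44 (adjusted p = 0.746).

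Summed neutrophil markers were lower in LH3-AL than in GFP-AL without overlap, whereas GFP-AL and GFP-Veh overlapped, unlike for Hp. The sum of 8 of them was 56.2, 64.3, 82.7, 44.8 and 65.6 FPKM in LH3-AL, 116, 919, 303, 143 and 492 FPKM in GFP-AL and 117, 150, 336, 104 and 173 FPKM in GFP-Veh. Within GFP-AL the libraries had the same order by Hp and by this sum, and within GFP-Veh replicate 3 was the highest by both, but in LH3-AL replicate 3 was highest by the sum and replicate 5 by Hp. Of 7 markers tested, 3 were higher in GFP-AL than in GFP-Veh and 5 were lower in LH3-AL than in GFP-AL. The shares of all genes were 10.8% higher in the first comparison and 11.4% lower in the second. S100a8, S100a9 and Retnlg made up most of the sum in GFP-AL. The granule genes Ngp and Camp had lower means in GFP-AL (27.4 and 5.77 FPKM) than in GFP-Veh (44.5 and 11.8 FPKM), and 0 of the tested markers were called lower. Ltf, another granule gene, was not called either, with GFP-AL minus GFP-Veh at -0.94 ± 0.36 (adjusted p = 0.0606). The part of neutrophils in the Hp values was not tested. The liver gene Alb averaged 0.0058, 0.00282 and 0.00263 FPKM in LH3-AL, GFP-AL and GFP-Veh.

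Cd163 (ENSMUSG00000008845, chromosome 6, 124304656 to 124330527, plus strand) encodes the receptor for haptoglobin bound to haemoglobin and in brain marks perivascular macrophages. Its level was 2.07, 1.55, 4.96, 4.59 and 3.10 FPKM in LH3-AL, 5.61, 4.26, 5.33, 7.18 and 4.01 FPKM in GFP-AL and 3.00, 1.60, 1.69, 1.71 and 1.60 FPKM in GFP-Veh. GFP-AL lay above GFP-Veh without overlap, and LH3-AL spanned both, with replicates 3 and 4 among the GFP-AL values and replicate 2 below every GFP-Veh library. GFP-AL rose by 1.10 ± 0.22 relative to GFP-Veh (adjusted p = 0.00202), and this held in all 18 alternatives that tested it. LH3-AL fell by 0.62 ± 0.22 relative to GFP-AL (adjusted p = 0.0486), a call kept in 6 of 18 alternatives (adjusted p between 0.0228 and 0.124). It was lost without LH3-AL replicate 1 (-0.52, adjusted p = 0.121), 2 (-0.45, adjusted p = 0.124) or 5 (-0.62, adjusted p = 0.0722), without GFP-AL replicate 1, 2, 3 or 4, and with the 3 libraries named above left out (-0.68, adjusted p = 0.0999). Of 7 other perivascular macrophage markers, 4 of the 6 tested were higher in GFP-AL than in GFP-Veh and 4 were lower in LH3-AL than in GFP-AL. Their sum ran from 33.5 to 51.4 FPKM in LH3-AL, from 56.8 to 103 FPKM in GFP-AL and from 26.9 to 48.8 FPKM in GFP-Veh. Among all genes, 10.8% were higher in GFP-AL than in GFP-Veh and 11.4% were lower in LH3-AL than in GFP-AL. Whether Cd163 per macrophage differed was not tested.

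Library by library, more of the 10 genes exceeded all GFP-Veh libraries in GFP-AL than in LH3-AL. In GFP-AL replicates 1 to 5 this held for 6, 5, 7, 7 and 6 of the 10 genes, where it held for 23.1%, 25.4%, 22.9%, 17.3% and 22.2% of all genes tested. In LH3-AL replicates 1 to 5 it held for 2, 1, 3, 3 and 5 genes, against 17.8%, 26.8%, 11.7%, 12.8% and 15.1% of all genes. Hmox1, Hp and Cd163 were above in all 5 GFP-AL libraries and Cp in 4, with Tfrc above in all 5 LH3-AL libraries and Cp in 4. In LH3-AL replicate 5 the genes above were Hmox1, Blvrb, Tfrc, Cp and Cd163.

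**Figure D3:**
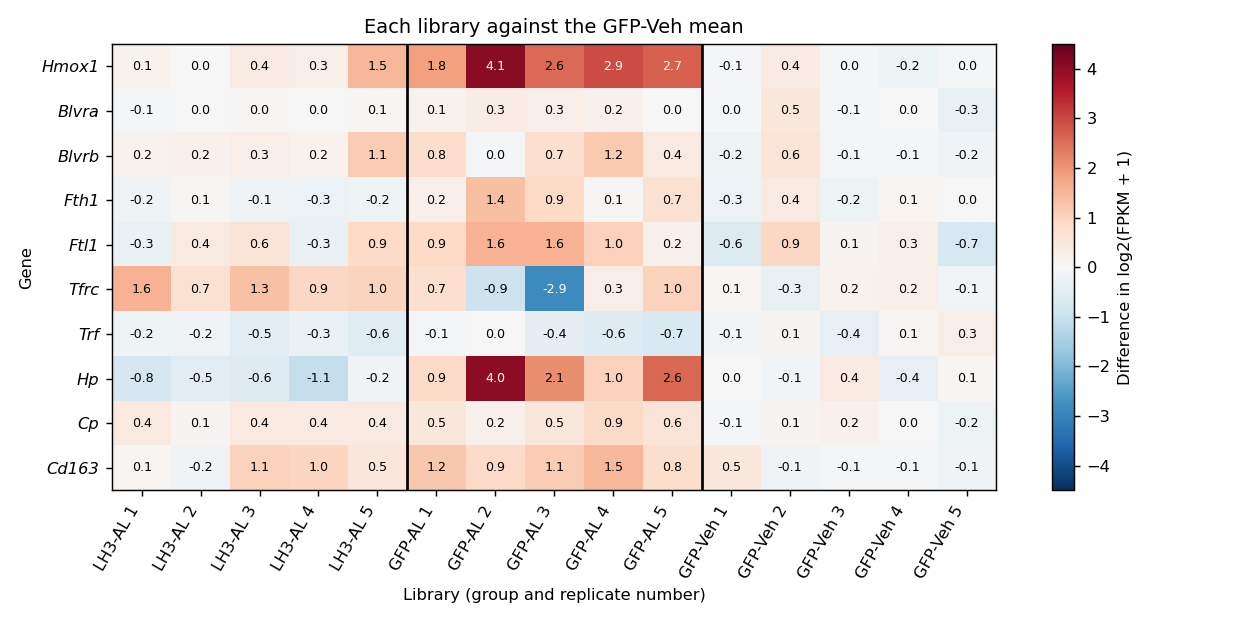
Difference of each library (columns, by group and replicate) from the GFP-Veh mean in log2(FPKM + 1), for the 10 genes (rows); red is higher and blue lower. Hmox1 and Hp reach their highest values in GFP-AL replicate 2, and Tfrc has its lowest in GFP-AL replicate 3.

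The wider pathway was described with 51 further genes of haem and iron metabolism, grouped by role, of which 50 are in the table and 42 passed the filter. In GFP-AL against GFP-Veh, 9 were called higher and 4 lower (median difference 0.11), where 10.8% of all genes were higher and 17.7% lower. The total of 13 of 42 was close to the 28.6% of all genes called in either direction. In LH3-AL against GFP-AL, 6 were called higher and 11 lower (median -0.18), where 17% of all genes were higher and 11.4% lower. There 17 of 42 were called, against 28.5% of all genes. Ftmt was not analysed here, and Hpx, the gene of the haem carrier haemopexin, was below the filter at 0.737 to 1.15 FPKM in LH3-AL, 0.406 to 1.02 FPKM in GFP-AL and 0.684 to 1.52 FPKM in GFP-Veh.

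Among partners and regulators of haem oxygenase, Por and Nfe2l2 were called in both comparisons with GFP-AL. Por, the reductase that feeds haem oxygenase electrons, averaged 28.7 ± 4.29 FPKM in LH3-AL, 63.9 ± 20.5 FPKM in GFP-AL and 27.0 ± 3.34 FPKM in GFP-Veh (SD, n = 5 each). GFP-AL overlapped with neither other group, at 1.17 ± 0.17 above GFP-Veh (adjusted p = 2.04e-04), and LH3-AL fell by 1.09 ± 0.17 relative to GFP-AL (adjusted p = 5.04e-04). Nfe2l2 encodes NRF2, an activator of Hmox1 transcription. It rose by 0.41 ± 0.10 in GFP-AL relative to GFP-Veh (adjusted p = 0.00612) and fell by 0.50 ± 0.10 in LH3-AL relative to GFP-AL (adjusted p = 0.00233). Bach1, the haem-sensing repressor of Hmox1, was called in LH3-AL against GFP-AL alone (-0.35 ± 0.13, adjusted p = 0.0499), a call lost after quantile normalization (adjusted p = 0.058), with depth as a covariate (adjusted p = 0.0638) and when the 3 libraries that stood apart were left out (-0.29, adjusted p = 0.108). Of the 5 genes of this role, 2 were higher and 0 lower in GFP-AL against GFP-Veh, where 10.8% of all genes were higher and 17.7% lower. In LH3-AL against GFP-AL 0 were higher and 3 lower, where 17% of all genes were higher and 11.4% lower.

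Among 9 tested genes of iron import and reduction, 4 were higher in GFP-AL than in GFP-Veh and 0 lower, against 10.8% and 17.7% of all genes. Slc11a1, an iron transporter of phagocyte vesicles, rose by 0.95 ± 0.13 (adjusted p = 1.13e-04). Slc39a14, which imports iron not bound to transferrin, rose by 0.75 ± 0.15 (adjusted p = 0.00215). The mitochondrial iron importers Slc25a37 and Slc25a28 rose by 0.60 ± 0.13 (adjusted p = 0.00278) and 0.53 ± 0.18 (adjusted p = 0.0377), the second not called with depth as a covariate (0.65, adjusted p = 0.0656). In LH3-AL against GFP-AL, 0 were higher and 3 lower, against 17% and 11.4% of all genes. Slc11a1 fell by 0.92 ± 0.13 (adjusted p = 2.28e-04), Slc39a14 by 0.71 ± 0.15 (adjusted p = 0.0038) and the metalloreductase gene Steap4 by 0.73 ± 0.20 (adjusted p = 0.0138). The Steap4 call was lost when the 3 libraries that stood apart were left out (-0.70, adjusted p = 0.0524). In haem uptake and transport, Slc46a1 was the only 1 of 7 tested genes called in each comparison with GFP-AL. Among all genes, 28.6% were called in GFP-AL against GFP-Veh and 28.5% in LH3-AL against GFP-AL. Slc46a1 encodes a folate carrier that also moves haem, and went the other way from the called import genes. It fell by 0.77 ± 0.16 in GFP-AL relative to GFP-Veh (adjusted p = 0.00298) and was 0.65 ± 0.16 higher in LH3-AL than in GFP-AL (adjusted p = 0.00995).

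Of the other export and signalling genes, Heph, the membrane-bound relative of ceruloplasmin, was 0.38 ± 0.12 higher in LH3-AL than in GFP-AL (adjusted p = 0.0267). That call was lost with quantile normalization (0.19, adjusted p = 0.253) and when the 3 libraries that stood apart were left out (0.24, adjusted p = 0.129). The endothelial signals that instruct hepcidin in liver differed from each other. Bmp2 rose by 0.66 ± 0.18 in GFP-AL relative to GFP-Veh (adjusted p = 0.0116) and fell by 0.69 ± 0.18 in LH3-AL against GFP-AL (adjusted p = 0.0105). Bmp6 was 0.49 ± 0.15 higher in LH3-AL than in GFP-AL (adjusted p = 0.0226), but was not called without the 3 libraries (0.35, adjusted p = 0.072). Pcbp1, a chaperone that delivers iron to ferritin, fell by 0.42 ± 0.11 in the same comparison (adjusted p = 0.0104), a call lost with quantile normalization (-0.17, adjusted p = 0.116).

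Lcn2, the gene of lipocalin 2, which binds iron-carrying siderophores, showed the widest range. It read 7.40, 15.9, 34.8, 15.2 and 97.5 FPKM in LH3-AL, 91.3, 451, 270, 182 and 71.1 FPKM in GFP-AL and 5.34, 4.74, 7.93, 2.002 and 3.57 FPKM in GFP-Veh. GFP-AL lay above GFP-Veh without overlap, and LH3-AL replicate 5 lay above 2 GFP-AL libraries. GFP-AL was 5.00 ± 0.59 above GFP-Veh (adjusted p = 4.04e-05), LH3-AL fell by 2.83 ± 0.59 relative to GFP-AL (adjusted p = 0.00325), and LH3-AL minus GFP-Veh was 2.17 ± 0.59, which was not called (adjusted p = 0.172). Lcn2 is also made by neutrophils, whose marker sums are given above, and their part was not tested.

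In haem synthesis the genes split, with 1 of 7 higher and 2 lower in GFP-AL against GFP-Veh and 2 higher and 2 lower in LH3-AL against GFP-AL. The shares of all genes were 10.8% higher and 17.7% lower in the first comparison and 17% and 11.4% in the second. Fech, which inserts iron into the ring, was 1.33 ± 0.27 higher in GFP-AL than in GFP-Veh (adjusted p = 0.00208). Uros and Cpox fell by 0.79 ± 0.15 (adjusted p = 0.00118) and 0.81 ± 0.19 (adjusted p = 0.00535) in GFP-AL relative to GFP-Veh, and both were higher in LH3-AL than in GFP-AL (0.47 ± 0.15, adjusted p = 0.0268, and 0.71 ± 0.19, adjusted p = 0.0128). Uros was not called in LH3-AL against GFP-AL with quantile normalization (0.27, adjusted p = 0.14), nor Cpox when the 3 libraries that stood apart were left out (0.48, adjusted p = 0.064). Alad fell by 0.42 ± 0.15 in LH3-AL against GFP-AL (adjusted p = 0.0459), a call lost without the 3 libraries (-0.33, adjusted p = 0.0545) and with depth as a covariate (-0.41, adjusted p = 0.0592). Alas1, the rate-setting enzyme outside red cells and a gene that haem represses, averaged 23.4 ± 3.50 FPKM in LH3-AL, 46.8 ± 8.59 FPKM in GFP-AL and 37.4 ± 4.54 FPKM in GFP-Veh (SD, n = 5 each). LH3-AL lay below both other groups without overlap. It fell by 0.97 ± 0.13 relative to GFP-AL (adjusted p = 1.70e-04) and fell by 0.66 ± 0.13 relative to GFP-Veh (adjusted p = 0.0308). It was the only one of the 42 genes called between LH3-AL and GFP-Veh, and that call did not survive median-of-ratios scaling (adjusted p = 0.0927) or depth as a covariate (adjusted p = 0.739). Fech was called higher in LH3-AL than in GFP-Veh without the 3 libraries (1.12, adjusted p = 0.00386), against 1.10 with them (adjusted p = 0.0955).

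**Figure D4:**
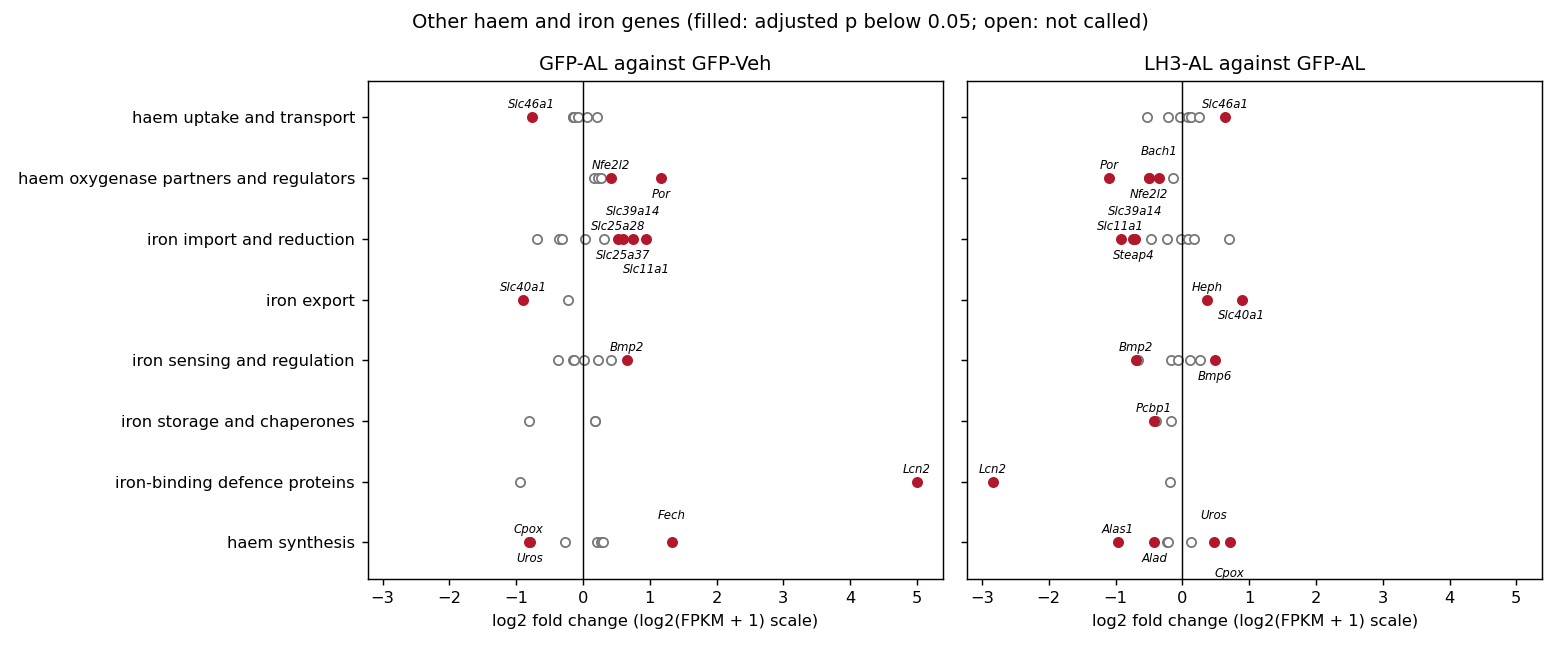
Log2 differences of the tested genes of haem and iron metabolism outside the 10, one point per gene, by role (rows), for GFP-AL against GFP-Veh (left) and LH3-AL against GFP-AL (right); filled points have adjusted p below 0.05 and are named. Por, Nfe2l2, Slc11a1, Slc39a14 and Lcn2 lie right of 0 on the left and left of 0 on the right, and Slc40a1, Slc46a1, Uros and Cpox do the reverse.

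Summed red cell markers were higher in LH3-AL and in GFP-AL than in GFP-Veh. The sum of 7 red cell markers, mostly globin genes, was 4770, 5830, 7990, 5720 and 10100 FPKM in LH3-AL, 8260, 3870, 19300, 12100 and 7090 FPKM in GFP-AL and 1880, 3860, 1470, 1840 and 2020 FPKM in GFP-Veh. Every LH3-AL and GFP-AL library exceeded every GFP-Veh library, while LH3-AL and GFP-AL overlapped. All 6 tested markers were higher in GFP-AL than in GFP-Veh, 0 differed between LH3-AL and GFP-AL, and 2 (Alas2 and Hbb-bt) were higher in LH3-AL than in GFP-Veh. The last count was 5 without the 3 libraries that stood apart, 1 (Hbb-bt) with median-of-ratios scaling and 0 with depth as a covariate. Among all genes, 10.8% were higher in GFP-AL than in GFP-Veh and 0.145% were higher in LH3-AL than in GFP-Veh. Between LH3-AL and GFP-AL, 28.5% of all genes were called in either direction. GFP-AL replicate 2, with the most Hmox1, Hp and Fth1, had the lowest red cell sum of its group. The part of red cell RNA in the haem and iron genes was not tested, and Tfrc, Blvrb, Fech and Slc25a37 are also expressed in developing red cells.

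Monocyte markers, most of their sum being Chil3, ran from 3.21 to 9.91 FPKM in LH3-AL, from 53 to 137 FPKM in GFP-AL and from 5.29 to 17.3 FPKM in GFP-Veh, with GFP-AL above both other groups in every library. The sums for microglia ran from 115 to 138 FPKM in LH3-AL, from 174 to 258 FPKM in GFP-AL and from 91.3 to 163 FPKM in GFP-Veh, again with GFP-AL above both. Of the 6 monocyte markers only 2 passed the filter. Of those, 1 was called higher in GFP-AL than in GFP-Veh and 1 lower in LH3-AL than in GFP-AL. The shares of all genes were 10.8% higher in the first comparison and 11.4% lower in the second. The part of blood and resident myeloid cells in the values of Hmox1, Cd163, Slc11a1 and ferritin was not tested.

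**Figure D5:**
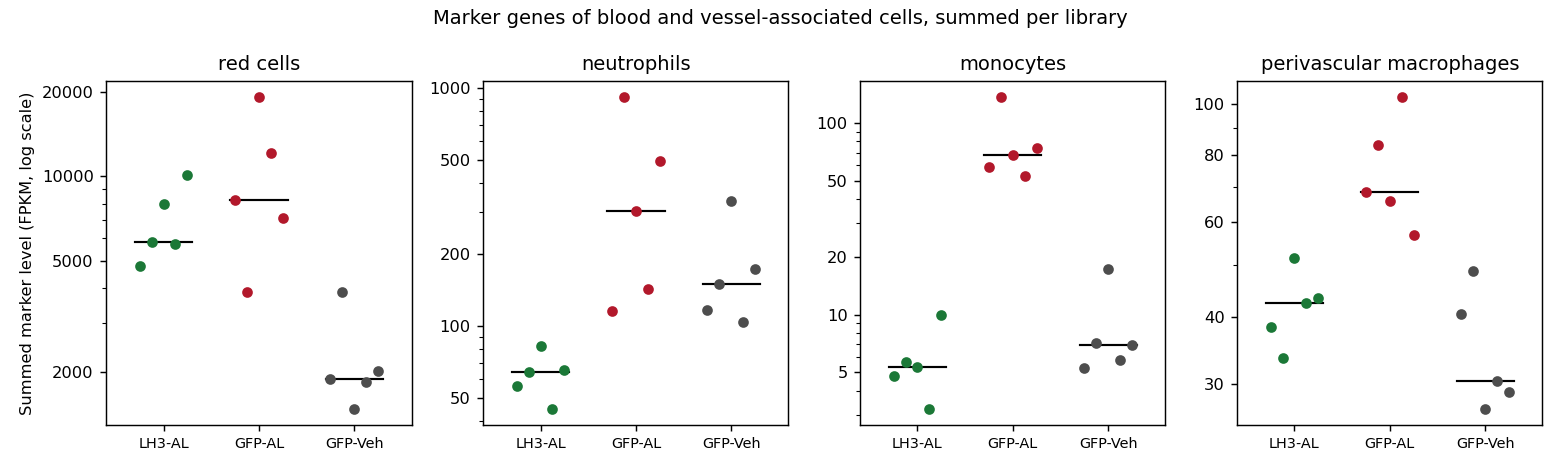
Summed FPKM of marker genes per library (points, log axis) with the group median (line), for LH3-AL, GFP-AL and GFP-Veh from left to right in each panel. Red cell markers in LH3-AL and GFP-AL lie above GFP-Veh, whereas neutrophil, monocyte and perivascular macrophage markers in LH3-AL lie below those of all GFP-AL libraries.

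The authors' deposited table for GFP-AL against GFP-Veh lists 1764 genes, among them Hmox1 (log2 fold change 3.26, q = 1.7e-19), Hp (2.87, q = 1.81e-07), Cd163 (1.46, q = 1.24e-07) and Ftl1 (1.01, q = 0.00431). The authors' deposited table named for LH3-AL against GFP-Veh lists 1746 genes, and its values followed the difference of LH3-AL minus GFP-AL (r = 0.926 across genes) rather than that of its name (r = 0.209). That authors' deposited table holds Hp (-3.65, q = 1.6e-10) and Hmox1 (-2.59, q = 3.9e-09) and no other of the 10 genes.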

How the data were processed

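Cerebral vessels were isolated by homogenisation and low-speed spins, per the labels' protocols. As tool and build, STAR 2.5.1b and mm8 are listed in the submitters' processing notes, without their role. The sources used here do not state strandedness, the counting step or the handling of shared reads. Per the file headers, the authors deposited FPKM values of 15 libraries in 22557 rows. Of these values 5.99% lie below 0, which FPKM cannot do, and were set to 0. The unit was therefore recorded as other. The authors also deposited log2 fold changes with p-values and q-values in tables of differential genes.

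Rows that share a symbol (31 symbols) were summed, leaving 22526. Depth was estimated from the steps of low values with GENCODE M21 exon lengths: 43.41% to 65.82% of values up to 10 reads were whole within 0.1 read, against 20% by chance, too few for a count test. Differences were fitted on log2(FPKM + 1) by limma 3.58.1 (R 4.3.3), with an intensity trend, over all 15 libraries and the 13082 genes whose mean reached 1 FPKM. Benjamini-Hochberg adjustment ran over all genes, and adjusted p below 0.05 was called. The script was tested on simulated data. Positions are those of GRCm38 and none was converted. Named genes were the 10 genes, Plod3, up to 4 called genes per role and comparison by smallest p, and Hmox2, Slc40a1 and Lcn2. Hpx falls outside this rule. Some genes of the lists are not reported here and enter no count or sum of a list. The genes, lists and tests were chosen with earlier results of these data known. Alternatives tried were filters at 5 FPKM or none, a pseudocount of 0.1, scaling by median of ratios or quantiles, a fit of only the groups compared, a replicate block, log2 depth as a covariate, leaving out 3 libraries, and leaving out each library in turn.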

Additional observations from a re-analysis of the deposited data

Results flagged for a closer look

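Single libraries stood far from the other 4 of their group in 5 of 39 groups of values examined, where chance gives about 1 in 20. LH3-AL replicate 5 had 15.3 FPKM of Hmox1, the highest of its group. The same library had 17.5 FPKM of Blvrb, also the highest of its group. GFP-Veh replicate 2 had 11.6 FPKM of Blvrb, the highest of its group. LH3-AL replicate 2 had 26.7 FPKM of Cp, the lowest of its group, and GFP-Veh replicate 1 had 3.00 FPKM of Cd163, the highest of its group.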

How the results depend on the processing

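Over the 10 genes and 3 comparisons, 567 alternative fits were made. Of these, 521 gave the same call, 31 lost a call, 15 gained one and 0 turned a call round. Genes that stayed uncalled could change sign, as Tfrc did in GFP-AL against GFP-Veh. Its difference was -0.34 in the main fit and 0.61 without the 3 libraries that stood apart. Of the 10 genes, between 4 and 8 were called in GFP-AL against GFP-Veh when single libraries were left out, between 3 and 6 in LH3-AL against GFP-AL, and 0 throughout in LH3-AL against GFP-Veh. With no filter 2 were called in LH3-AL against GFP-AL, Hmox1 and Hp. In LH3-AL against GFP-Veh 1 was called, Tfrc, in a fit of only these groups and without the 3 libraries that stood apart. Over all genes, a mean of at least 5 FPKM left 7382 genes tested, with 2174 called in GFP-AL against GFP-Veh and 2109 in LH3-AL against GFP-AL, against 3737 and 3723. Depth as a covariate gave 2367 called in GFP-AL against GFP-Veh; depth is partly tied to group, and the cause was not tested. Leaving out single libraries gave 2840 to 4437 and 2658 to 3939 called genes. In LH3-AL against GFP-Veh, 68 genes were called, and 176 in a fit of only these groups, 158 without the 3 libraries, 4 with depth, and 27 to 57 with single libraries left out. Median-of-ratios scaling moved the split of higher and lower calls to 1842 and 1711 in GFP-AL against GFP-Veh (1416 and 2321 unscaled) and to 1782 and 1895 in LH3-AL against GFP-AL (2227 and 1496 unscaled). Of the further haem and iron genes, 1 of 13 called in GFP-AL against GFP-Veh (Slc25a28) and 8 of 17 called in LH3-AL against GFP-AL (Alad, Bach1, Bmp6, Cpox, Heph, Pcbp1, Steap4 and Uros) were lost in at least 1 of 4 alternatives, while 3 and 7 others were gained. Among these genes, 0 with median-of-ratios scaling or depth and 2 without the 3 libraries were called in LH3-AL against GFP-Veh, and of the red cell markers 1 with median-of-ratios scaling, 0 with depth and 5 without the 3 libraries. These list alternatives were chosen after seeing the data.

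Libraries of one replicate number share only that number: their deviations correlated at -0.261 to 0.286. In 4 of 15 comparisons of a library with the libraries of another group, its own number correlated best. With the replicate number as a block, 3783, 3879 and 31 genes and 6, 4 and 0 of the 10 genes were called in GFP-AL against GFP-Veh, LH3-AL against GFP-AL and LH3-AL against GFP-Veh.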
